A study of Mus musculus with 18 samples.

Results

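Aminoacyl-tRNA synthetases join each amino acid to its tRNAs and so supply the charged tRNAs that ribosomes read. Their 36 genes analysed here were taken by gene symbol from the 24527 entries of a read count table. They comprise 20 genes of the cytosolic enzymes and 16 genes of the mitochondrial enzymes, whose symbols end in 2. Every listed symbol was found, and all 36 genes were among the 13827 that passed a filter on low counts. The lowest count of any of them in any library was 109.

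The cytosolic enzymes serve the ribosomes of the cytosol, while the mitochondrial enzymes are encoded in the nucleus, imported, and serve the ribosomes of the organelle. In mammals 8 of the cytosolic members (Eprs, Iars, Lars, Mars, Qars, Rars, Kars and Dars) sit together in the multisynthetase complex, and Gars and Kars each make the enzyme of both compartments from a single gene. Many cytosolic synthetase genes are known targets of ATF4, the transcription factor of the integrated stress response, which cells start when amino acids run short or proteins misfold in the endoplasmic reticulum.

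RNA was sequenced from the mouse pancreatic ductal adenocarcinoma lines PD454, PD7591 and PD883, of mixed strain background. Each line was kept for 48 h with 2.5 µM ionomycin, a calcium ionophore, with 10 ng/ml TGFb, which induces epithelial-mesenchymal transition in many carcinoma cells, or with DMSO, the solvent. With 2 libraries for each of the 9 pairings of line and treatment, each treatment had 6. All groups grew in a medium that also held insulin, dexamethasone, cholera toxin, nicotinamide and pituitary extract, and the labels do not say whether the lines are clonal. Nothing in the labels states that duplicates were grown apart, so p-values measure only the spread between these libraries, and the spread between duplicates may be technical. In the tests fitted on treatment and line, the spread also holds differences in response between the lines.

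Totals were 17591005 to 37894692 counts per library. All 9 epithelial and ductal markers passed the filter, with sums of 5330 to 9609 CPM (counts scaled to library size with composition factors) for ionomycin, 3993 to 7051 CPM for TGFb and 4865 to 7706 CPM for DMSO. These sums hide opposite changes, since with TGFb 3 of the 9 were called higher and 3 lower than with DMSO, beside 24.3% and 26.5% of all genes. Krt19 held 4.12 to 60.7 CPM with TGFb and 484.9 to 1746 CPM with DMSO. Cldn4 held 19.6 to 108 CPM with TGFb and at most 0.22 CPM with DMSO. Epcam reached at most 4.30 CPM and Cldn7 at most 1.40 CPM in any library. Of 5 acinar markers Cpa1, Amy2b and Ptf1a were at 0 and only Cela1 passed the filter, and the list summed to 0.054 to 1.11 CPM with ionomycin, 2.44 to 6.18 CPM with TGFb and 0.044 to 1.41 CPM with DMSO. Cela1 was higher with TGFb than with DMSO, at a log2 fold change of 3.19 (edgeR adjusted p = 2.02e-06). Of 4 endocrine markers, which summed to at most 0.30 CPM in any library, Ins1 and Ins2 were at 0. The 6 fibroblast markers summed to 1.51 to 4.19 CPM with ionomycin, 6.97 to 101.5 CPM with TGFb and 2.03 to 5.82 CPM with DMSO. Of these, Col1a1 alone held 4.97 to 84.3 CPM with TGFb, while in any library Col1a2 reached at most 0.87 CPM and Dcn at most 0.76 CPM. The 5 immune markers summed to 8.37 to 29.2 CPM with ionomycin, 2.54 to 3.75 CPM with TGFb and 3.27 to 5.87 CPM with DMSO. Only 2 of them passed the filter. Cd68 alone held 7.15 to 28.8 CPM with ionomycin, and Cd3e reached at most 1.11 CPM in any library. The 4 endothelial markers summed to 0.28 to 2.79 CPM with ionomycin, 0.23 to 1.20 CPM with TGFb and 0.23 to 0.77 CPM with DMSO. Both that passed the filter, Pecam1 and Cdh5, were called higher with ionomycin than with DMSO, beside 17.2% of all genes. Pecam1 reached at most 0.75 CPM in any library, and Cdh5 at most 0.16 CPM in any library of PD7591 or PD883. The part of these marker lists in the results was not tested. In 4 libraries, 2 with TGFb (PD454 18 and PD883 12) and 2 with DMSO (PD454 14 and PD883 8), short transcripts were over-represented (the 4 short-transcript libraries), and calls of members that changed without them are named where they stand.

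The promoters of the cytosolic genes are shown first, because matches to a stress response element lie in some of them. The element is the composite C/EBP-ATF core, which ATF4 binds together with a C/EBP factor, written here as TGATGNAA or TTNCATCA on the other strand, and no other motif was searched. RefSeq promoters on the build GRCm38.p6, which run from 250 bases before to 50 bases after the annotated start, were matched for 13 cytosolic and 14 mitochondrial members. The core was found in 5 of these 13 cytosolic promoters (Aars, Gars, Iars, Tars and Yars) and in 0 of the 14 mitochondrial ones, against 4.51% of the 27025 genes with a promoter. A match is a string of letters in this window and not a measured binding site.

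The lines below give 120 bases before and 20 bases after the start of these 5 genes, and of Sars, which holds no match, 5′ to 3′ on the strand of the gene with matches in capitals. Counted from +1 at the annotated start, the matches began at -112 and 10 in Aars, -30 in Gars, 8 in Iars, -15 in Tars and 4 in Yars.
Aars, chr8:111033722-111033861, plus strand: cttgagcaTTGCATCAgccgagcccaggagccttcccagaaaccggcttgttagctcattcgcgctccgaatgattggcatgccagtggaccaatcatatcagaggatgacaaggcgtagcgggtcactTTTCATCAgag
Gars, chr6:55037881-55038020, plus strand: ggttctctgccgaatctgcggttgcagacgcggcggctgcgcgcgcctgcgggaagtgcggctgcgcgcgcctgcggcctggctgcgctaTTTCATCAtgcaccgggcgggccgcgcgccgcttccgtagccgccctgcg
Iars, chr13:49682010-49682149, plus strand: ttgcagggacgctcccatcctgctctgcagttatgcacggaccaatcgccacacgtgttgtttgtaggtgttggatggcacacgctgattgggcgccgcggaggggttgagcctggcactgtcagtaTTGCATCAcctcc
Tars, chr15:11399639-11399778, minus strand: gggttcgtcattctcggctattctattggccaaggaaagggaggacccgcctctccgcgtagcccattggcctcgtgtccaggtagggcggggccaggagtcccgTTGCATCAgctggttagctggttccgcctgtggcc
Yars, chr4:129189783-129189922, plus strand: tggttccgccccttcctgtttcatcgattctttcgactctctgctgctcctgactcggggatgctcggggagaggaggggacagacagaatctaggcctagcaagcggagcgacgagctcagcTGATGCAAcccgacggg
Sars, chr3:108445240-108445379, minus strand: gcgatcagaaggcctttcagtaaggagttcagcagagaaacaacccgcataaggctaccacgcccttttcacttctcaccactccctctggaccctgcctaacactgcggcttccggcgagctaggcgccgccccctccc

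With DMSO the cytosolic genes were the more abundant class per exonic length. Dividing CPM by the exonic length of each gene in GENCODE M21 gave a median level of 47.2 CPM per kb over the 20 cytosolic genes, with a range of 14.4 to 166.4, and a median of 5.54 CPM per kb over the 16 mitochondrial genes, with a range of 1.55 to 65.9. Nars, the asparaginyl enzyme, led with 166.4 ± 48.6 CPM per kb, followed by Vars, the valyl enzyme, with 139 ± 28.6 and Gars, the glycyl enzyme, with 118.3 ± 23.4 (mean ± SD of 3 line means). Farsa, which encodes the alpha subunit of phenylalanyl-tRNA synthetase, was the lowest cytosolic gene at 14.4 ± 1.11 CPM per kb, while Farsb, which encodes the beta subunit, stood at 32.1 ± 7.26 CPM per kb. Among mitochondrial genes Lars2, the leucyl enzyme, stood apart at 65.9 ± 32.7 CPM per kb, and its counts are treated separately below. Vars2 at 22.1 ± 2.08 and Iars2 at 15.7 ± 1.47 CPM per kb were the only other mitochondrial genes above Farsa. The mean ± SD ranges of neighbours in the order overlapped, except between Vars2 and Iars2, between Farsa and Hars2, and between Cars2 and Ears2. These levels and their order rest on GENCODE lengths, since the sources used here do not name the annotation the authors counted with. Each length covers all annotated exons of the gene together and is not that of a single transcript.

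**Figure D1:**
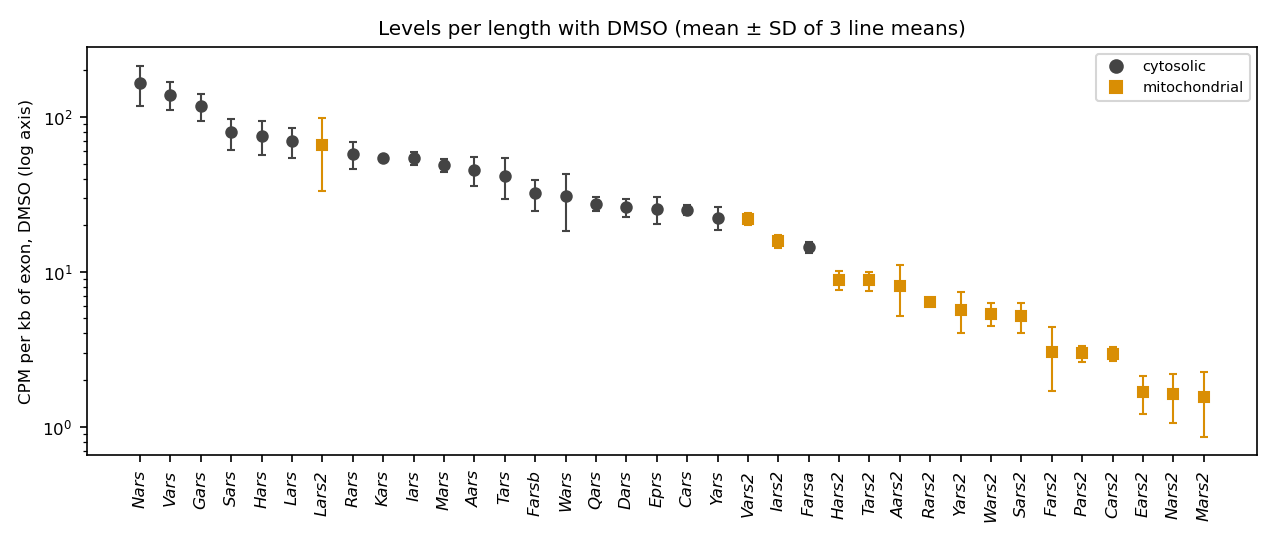
Level of each of the 36 synthetase genes with DMSO, in CPM per kb of exon on a log axis, ordered from high to low. Points are means and bars SDs of 3 line means; the cytosolic genes run from 14.4 to 166.4 and the mitochondrial genes, Lars2 apart, lie at or below 22.1.

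Ionomycin was set against DMSO to ask what a calcium ionophore does to expression in these carcinoma cells. Of the 20 cytosolic synthetase genes 15 rose with ionomycin and none fell, while of the 16 mitochondrial genes 2 rose, 2 fell and 12 did not pass the test. Among all 13827 genes 33.3% passed, 17.2% higher and 16.1% lower (edgeR quasi-likelihood F test fitted on treatment and line, Benjamini-Hochberg adjusted p under 0.05). The median log2 fold change was 0.55 over the cytosolic genes, -0.06 over the mitochondrial genes and -0.03 over all genes tested. In bulk RNA, a change in the share of cells that express a gene and a change in the RNA per cell cannot be told apart.

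**Figure D2:**
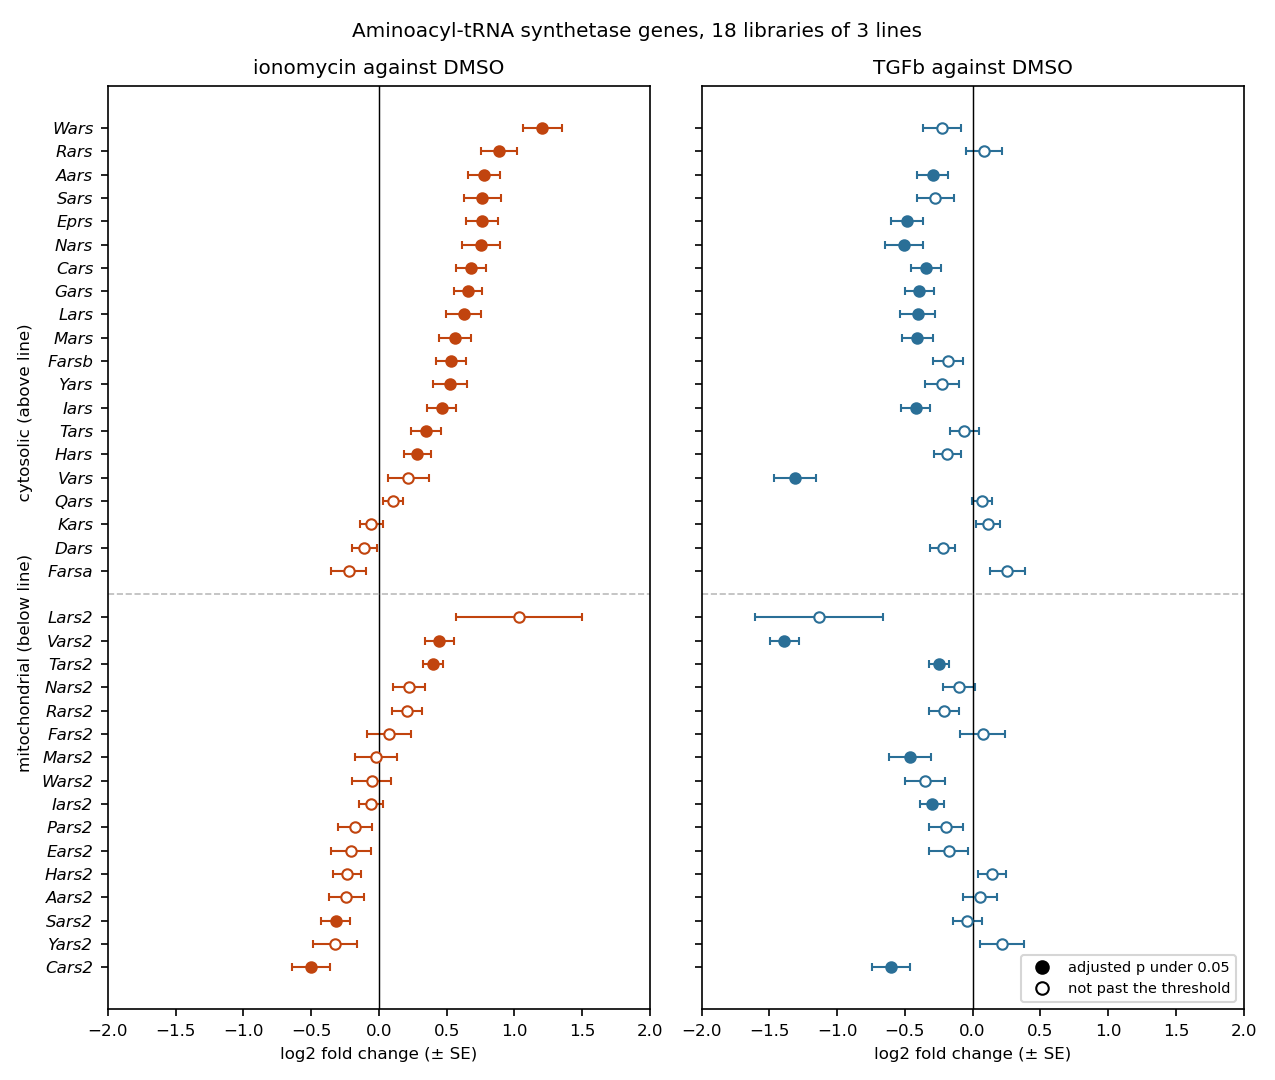
Log2 fold change of the 36 genes for ionomycin against DMSO (left) and TGFb against DMSO (right), cytosolic genes above the dashed line and mitochondrial genes below it; bars are SEs and filled points passed an adjusted p under 0.05. On the left 15 cytosolic points are filled to the right of 0 and none to its left, and on the right 9 cytosolic and 5 mitochondrial points are filled, all left of 0.

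Wars, the tryptophanyl enzyme, had the largest rise of the 20 cytosolic genes. In PD454 the ionomycin libraries held 269.7 and 229.1 CPM and the DMSO libraries 154.6 and 155.7 CPM. In PD7591 the values were 173.3 and 219.3 CPM with ionomycin and 79.6 and 86.5 CPM with DMSO, and in PD883 they were 285.9 and 224.6 CPM with ionomycin and 84.0 and 76.5 CPM with DMSO. All 6 ionomycin libraries lay above all 6 DMSO libraries, and the DMSO level of PD454 was the highest of the 3 lines. The log2 fold change was 1.20 ± 0.14 (SE, edgeR adjusted p = 6.16e-06), a 2.30-fold difference.

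Outside the complex, 10 of 12 cytosolic genes rose, with a median log2 fold change of 0.60. Aars, the alanyl enzyme, held 642.8, 712.7 and 758.5 CPM with ionomycin (lowest, median and highest of 6 libraries, as in the following sentences) and 300.1, 441.9 and 524.5 CPM with DMSO. Its groups did not overlap, and its log2 rise was 0.78 ± 0.12 (adjusted p = 6.68e-05). Aars shares 1326 exonic bases with Exosc6 on the same strand, and the sources used here do not say how the counting treated them. Sars, the seryl enzyme, held 529.2, 645.3 and 1064 CPM with ionomycin and 285.8, 412.5 and 536.3 CPM with DMSO. Its ranges touched, since ionomycin in PD7591 gave 529.2 CPM and DMSO in PD883 gave 536.3 CPM, but within each line both ionomycin libraries were the higher, and Sars rose by 0.76 ± 0.13 (adjusted p = 3.01e-04).

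Nars had 896.3, 1207 and 1528 CPM with ionomycin and 500.6, 690.3 and 1108 CPM with DMSO, and rose by 0.75 ± 0.14 (adjusted p = 4.59e-04). Cars, the cysteinyl enzyme, had 212.6, 269 and 305 CPM with ionomycin and 142.4, 171.7 and 186 CPM with DMSO, groups that did not overlap, and rose by 0.68 ± 0.11 (adjusted p = 1.47e-04). Gars, the glycyl enzyme of both compartments, had 497.9, 587.4 and 628.4 CPM with ionomycin and 274.4, 391.9 and 436.2 CPM with DMSO. It rose by 0.66 ± 0.11 (adjusted p = 1.38e-04), and its groups did not overlap either. Farsb at 0.53 ± 0.11 and Yars, the tyrosyl enzyme, at 0.52 ± 0.12 also rose, with Tars, the threonyl enzyme, at 0.35 ± 0.11 and Hars, the histidyl enzyme, at 0.28 ± 0.10. Tars stood at 0.02 in PD454, 0.37 in PD7591 and 0.66 in PD883, and its call was lost in 5 of 33 alternative settings, among them those without PD7591 and without PD883. The Hars call, at an adjusted p of 0.0349, was lost in 13 of 33 alternative settings, among them those without ionomycin PD454 16, PD7591 4 or PD883 10 and without DMSO PD7591 2, PD883 7 or PD883 8 (0.24 to 0.34 over single left-out libraries). Hars shares 195 exonic bases on opposite strands with its mitochondrial neighbour Hars2. Vars at 0.22 ± 0.15 and Farsa at -0.22 ± 0.13 did not pass, so that the gene of the beta subunit of phenylalanyl-tRNA synthetase passed and that of the alpha subunit did not; a test between these 2 genes was not made.

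Within the multisynthetase complex 5 of 8 genes rose, with a median of 0.51. Rars, the arginyl enzyme, held 240, 339.2 and 465.2 CPM with ionomycin and 146.1, 187.8 and 248.6 CPM with DMSO. Its lowest ionomycin library, in PD7591, lay below the highest DMSO library, in PD454, while within each line the groups were apart, and Rars rose by 0.89 ± 0.13 (adjusted p = 7.57e-05). Eprs, which charges both glutamate and proline tRNAs, held 693, 769.7 and 847.1 CPM with ionomycin and 325.8, 445.3 and 615.1 CPM with DMSO. Those groups did not overlap, and the rise was 0.76 ± 0.12 (adjusted p = 8.59e-05). Lars, the leucyl enzyme, rose by 0.62 ± 0.13, Mars, the methionyl enzyme, by 0.56 ± 0.12 and Iars, the isoleucyl enzyme, by 0.46 ± 0.11. Mars shares 68 exonic bases on opposite strands with the stress gene Ddit3, which itself rose by 2.04 ± 0.30 (adjusted p = 5.85e-05), and the sources used here do not give the strand mode of the counting.

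The other 3 complex members did not pass. Kars, the lysyl enzyme of both compartments, had 208.4, 226.2 and 263.4 CPM with ionomycin and 229.4, 238.3 and 274 CPM with DMSO, a log2 fold change of -0.06 ± 0.09 (adjusted p = 0.657) with a 95% interval of -0.24 to 0.13. Qars, the glutaminyl enzyme, stood at 0.11 ± 0.07 with an interval of -0.05 to 0.26, and Dars, the aspartyl enzyme, at -0.11 ± 0.09 with an interval of -0.30 to 0.09. The upper bounds of these 3 intervals lay below the fold changes of Rars, Eprs, Lars, Mars and Iars. The interval of Iars, 0.24 to 0.69, overlapped that of Qars, and no test between genes was made. The 3 non-enzyme subunits of the complex did not pass either, at 0.12 ± 0.14 for Aimp1, -0.38 ± 0.17 for Aimp2 and 0.42 ± 0.17 for Eef1e1.

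Of the 5 cytosolic genes whose promoters held the C/EBP-ATF core, all 5 were among the genes that rose. Of the 8 cytosolic genes with a matched promoter and no such string, Eprs, Farsb, Mars and Sars rose, and Dars, Farsa, Kars and Qars did not pass. The number of genes is small, and a missing string in 300 bases says nothing about sites elsewhere.

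**Figure D3:**
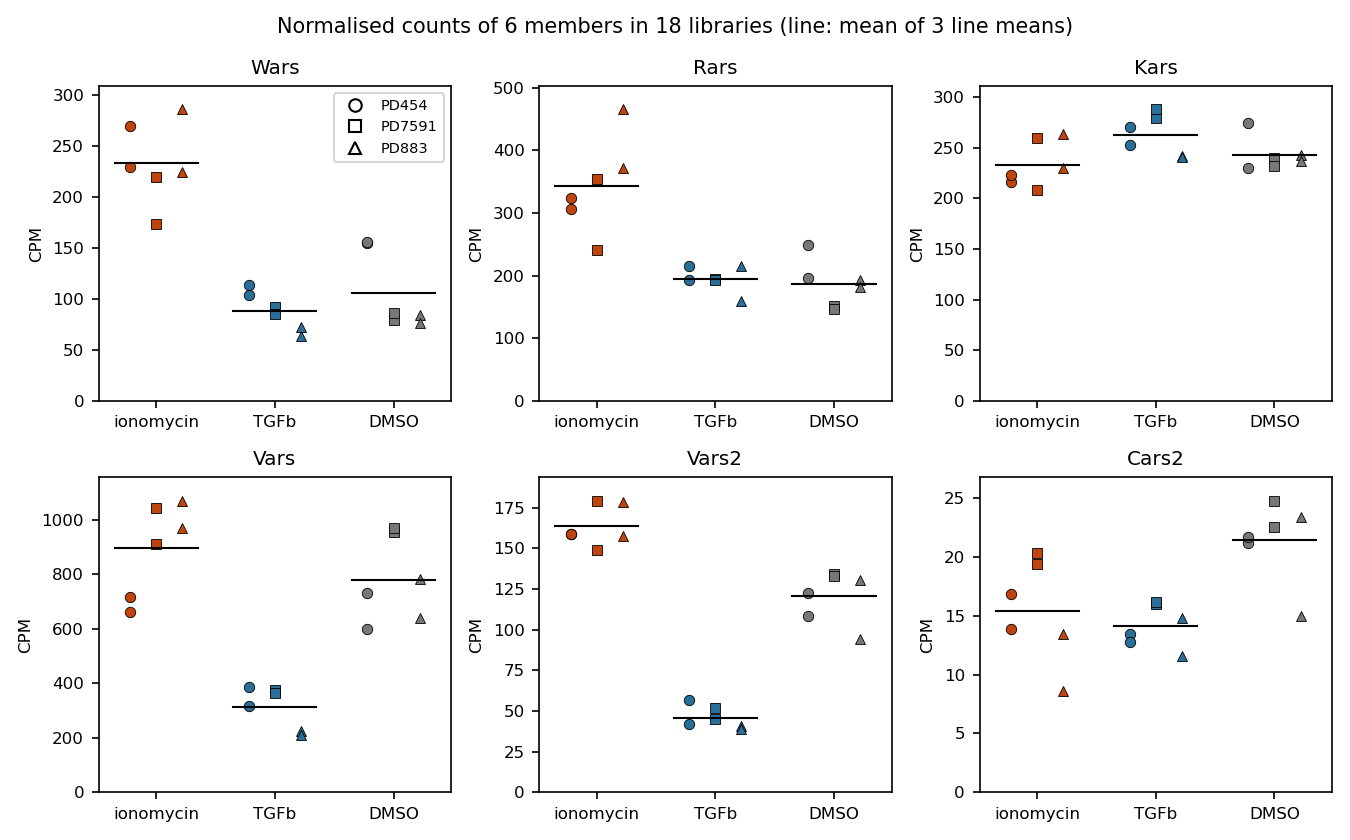
CPM of 6 synthetase genes in the 18 libraries, for ionomycin, TGFb and DMSO from left to right; symbols mark the line and bars the mean of the 3 line means. Wars and Rars are highest with ionomycin, Kars is near level, Vars and Vars2 are lowest with TGFb, and Cars2 is lower with both agents than with DMSO.

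With ionomycin 2 of 16 mitochondrial genes were called higher and 2 lower, beside 17.2% and 16.1% of all genes. Neither count lay above its share over all genes. Vars2, the valyl enzyme, held 149, 158.8 and 179.1 CPM with ionomycin and 94.0, 126.6 and 134 CPM with DMSO. These groups did not overlap, and Vars2 rose by 0.45 ± 0.11 (adjusted p = 0.00351). Tars2, the threonyl enzyme, held 70.4, 82.5 and 83.9 CPM with ionomycin and 50.7, 61.0 and 70.6 CPM with DMSO, and rose by 0.40 ± 0.07 (adjusted p = 4.32e-04). Cars2, the cysteinyl enzyme, held 8.60, 15.3 and 20.3 CPM with ionomycin and 14.9, 22.1 and 24.7 CPM with DMSO. Its log2 fold change was -0.50 ± 0.14 (adjusted p = 0.00993), with both ionomycin libraries below both DMSO libraries in every line (the call was lost without PD454). Cars2 shares 422 exonic bases on opposite strands with Naxd. Sars2, the seryl enzyme, fell by 0.32 ± 0.11 (adjusted p = 0.0305), a call lost in 14 of 33 alternative settings, among them those without the 4 short-transcript libraries, without ionomycin PD454 15, PD454 16 or PD883 9 and without DMSO PD454 13, PD454 14, PD7591 1 or PD883 8 (-0.36 to -0.26 over single left-out libraries). The other 12 mitochondrial genes did not pass, among them Hars2 at -0.24 ± 0.10 and Yars2 at -0.33 ± 0.16. Hars2 passed as lower with library totals and with a mean per group. Yars2 passed without DMSO PD883 7 (-0.41 to -0.24 over single left-out libraries).

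Groups of libraries were also compared for overlap. In 13 cytosolic genes both ionomycin libraries lay above both DMSO libraries in each of the 3 lines, and in no cytosolic gene below them, where 12.2% of all genes tested lay above and 10.4% below. The mitochondrial genes gave 2 above and 1 below. All 6 ionomycin libraries lay above all 6 DMSO libraries in 6 cytosolic genes (Aars, Cars, Eprs, Gars, Mars and Wars) and in Vars2, against 4.54% of all genes, and below them in none of the 36, against 2.69% of all genes. Summed over the 20 cytosolic genes, the libraries held 7165, 8299 and 9903 CPM with ionomycin and 5034, 5565 and 6662 CPM with DMSO. Summed over the 15 mitochondrial genes without Lars2, they held 559.2, 582.9 and 683.3 CPM with ionomycin and 506.5, 565.6 and 613.9 CPM with DMSO, so that the cytosolic sums of these treatments were apart and the mitochondrial sums overlapped. When the duplicates were summed and each line counted as 1 sample per treatment, 10 cytosolic genes and 1 mitochondrial gene rose and none fell, where 7.83% of all genes were higher and 4.95% lower.

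**Figure D4:**
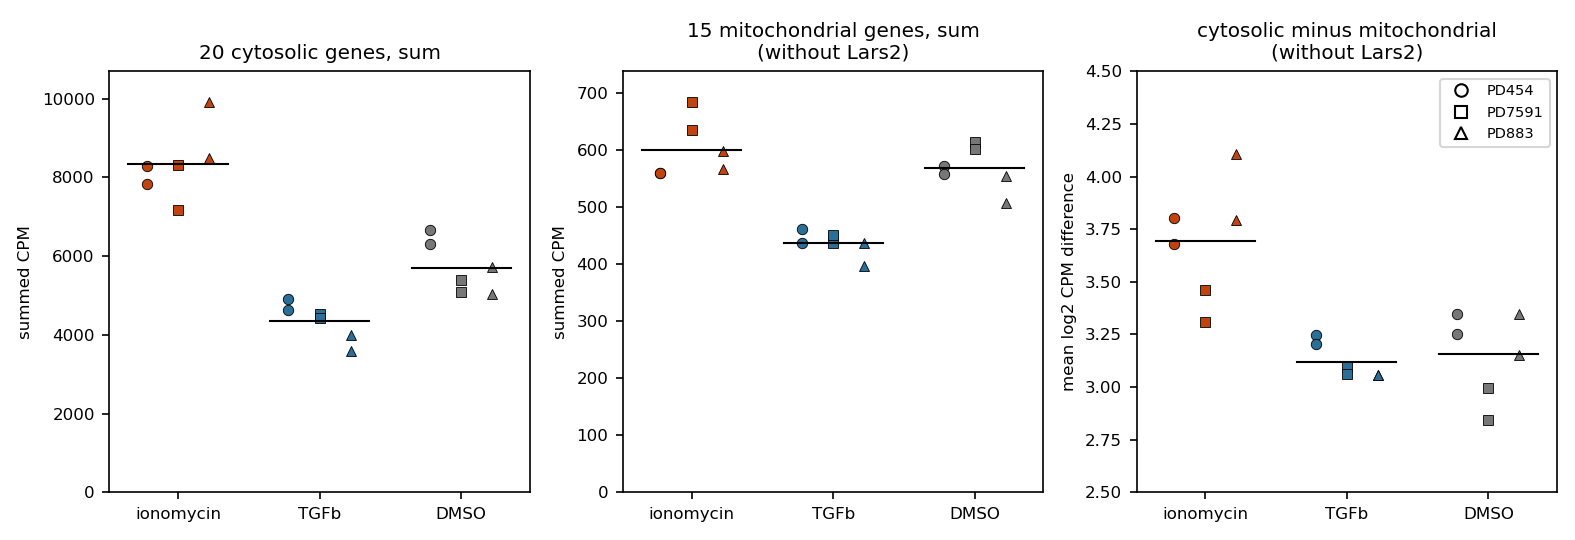
Summed CPM of the 20 cytosolic genes, summed CPM of 15 mitochondrial genes without Lars2, and the mean log2 CPM of the cytosolic minus that of the mitochondrial genes, in each of 18 libraries, for ionomycin, TGFb and DMSO from left to right. Bars are means of the 3 line means; cytosolic sums run from 7165 to 9903 with ionomycin, 3581 to 4904 with TGFb and 5034 to 6662 with DMSO.

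TGFb was set against DMSO to ask the same of an inducer of epithelial-mesenchymal transition. With TGFb 9 cytosolic genes fell and none rose, and 5 mitochondrial genes fell and none rose, where 50.7% of all genes passed, 24.3% higher and 26.5% lower (edgeR). The medians were -0.25 over the cytosolic genes, -0.20 over the mitochondrial genes and -0.0022 over all genes tested. The medians of the classes thus lay close together in the fit over all lines. Within lines, the cytosolic minus the mitochondrial median was -0.08 in PD454, 0.09 in PD7591 and -0.25 in PD883. With each line counted as 1 summed sample per treatment, 2 cytosolic and 2 mitochondrial genes fell and none rose, where 17.4% of all genes were lower and 14.4% higher. This contrast and the preceding one share their DMSO libraries, so their values are not independent of each other.

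The valyl enzymes of both compartments fell most. Vars held 209.9, 339.8 and 387.6 CPM with TGFb and 598.1, 757.6 and 971.7 CPM with DMSO. Every TGFb library lay below every DMSO library, and the log2 fold change was -1.31 ± 0.16 (adjusted p = 1.23e-06). Vars2 held 38.9, 43.6 and 57.0 CPM with TGFb and 94.0, 126.6 and 134 CPM with DMSO. Its groups were also apart, and it had the smallest adjusted p of the 36 genes (a log2 fold change of -1.39 ± 0.11, adjusted p = 5.34e-09). Within lines, Vars stood at -0.92 in PD454, -1.38 in PD7591 and -1.71 in PD883, and Vars2 at -1.23, -1.45 and -1.49 in the same order of lines.

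Falls of the other cytosolic genes were smaller. Iars held 198.9, 216.2 and 220.4 CPM with TGFb and 246.7, 287 and 315.6 CPM with DMSO, without overlap, and changed by -0.42 ± 0.11 (adjusted p = 0.00319). Mars held 97.6, 131.4 and 137.5 CPM with TGFb and 145.3, 169.5 and 193 CPM with DMSO, also without overlap, and changed by -0.41 ± 0.12 (adjusted p = 0.00712). Eprs held 212, 350.1 and 444.9 CPM with TGFb and 325.8, 445.3 and 615.1 CPM with DMSO. Those ranges overlapped across lines but not within them, and Eprs changed by -0.48 ± 0.12 (adjusted p = 0.00196). Nars at -0.51 ± 0.14, Gars at -0.39 ± 0.11, Lars at -0.40 ± 0.13, Cars at -0.34 ± 0.11 and Aars at -0.29 ± 0.12 also passed. Gars stood at -0.42 in PD454, -0.04 in PD7591 and -0.72 in PD883, and its call was lost without PD883, with summed duplicates and without the 4 short-transcript libraries. Nars stood at -0.74, -0.08 and -0.70 in the same lines, and its call was lost without PD454 and with summed duplicates. The Aars call was weak, with an adjusted p of 0.0406 that rose past the threshold in 23 of 33 alternative settings, among them each of 15 left-out libraries, all but ionomycin PD7591 3, TGFb PD454 17 and DMSO PD883 8 (-0.32 to -0.20 over single left-out libraries). Cars did not pass without TGFb PD883 11 or DMSO PD7591 2 (-0.36 to -0.25), nor Lars without TGFb PD883 11 or DMSO PD454 13 (-0.48 to -0.32), and without the 4 short-transcript libraries 6 cytosolic genes fell, the calls of Aars, Cars and Gars being lost. The other 11 cytosolic genes did not pass, among them Kars at 0.11 ± 0.09, Qars at 0.07 ± 0.07, Farsa at 0.26 ± 0.13, Dars at -0.22 ± 0.09 and Wars at -0.23 ± 0.14. The remaining 6 were Farsb, Hars, Rars, Sars, Tars and Yars. Farsa passed as higher without PD454, and also without TGFb PD454 17, TGFb PD883 11 or DMSO PD454 14 (0.21 to 0.38 over single left-out libraries). Dars passed as lower in 6 of 33 alternative settings, among them DESeq2 and library totals.

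Besides Vars2, the mitochondrial genes Cars2, Mars2, Iars2 and Tars2 fell with TGFb. Cars2 held 11.5, 14.1 and 16.1 CPM with TGFb and 14.9, 22.1 and 24.7 CPM with DMSO, a change of -0.60 ± 0.14 (adjusted p = 0.00147). Iars2, the isoleucyl enzyme, held 107.6, 112.4 and 118.5 CPM with TGFb and 124, 140.2 and 154.1 CPM with DMSO, without overlap, and changed by -0.30 ± 0.09 (adjusted p = 0.00764). It shares 2034 exonic bases on opposite strands with Rab3gap2, so its counts may hold reads of both. Mars2, the methionyl enzyme, stood at -0.46 ± 0.16 and Tars2 at -0.25 ± 0.07. The call of Tars2 was lost in 6 of 33 alternative settings, among them those without PD454 and without PD883, and that of Iars2 in 4, among them those without PD7591 and without PD883. The other 11 mitochondrial genes did not pass, though Wars2 passed as lower in 11 of 33 alternative settings. Among these were DESeq2, limma-voom, library totals and those without PD454, TGFb PD454 17, TGFb PD454 18 or DMSO PD454 14 (-0.46 to -0.25 over single left-out libraries). Mars2 did not pass without PD454 or without the 4 short-transcript libraries, nor without TGFb PD454 17, TGFb PD454 18 or DMSO PD454 13 (-0.53 to -0.35 over single left-out libraries), and within the lines its values were -0.97 in PD454, -0.17 in PD7591 and -0.22 in PD883.

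All 6 TGFb libraries lay below all 6 DMSO libraries in Iars, Mars, Vars, Iars2 and Vars2, which are 5 of the 36 genes where 9.41% of all genes did so, and above them in none of the 36, where 8.21% did so. The cytosolic sums were 3581, 4469 and 4904 CPM with TGFb and 5034, 5565 and 6662 CPM with DMSO, and did not overlap. The mitochondrial sums without Lars2 were 396.6, 437.7 and 461 CPM with TGFb and 506.5, 565.6 and 613.9 CPM with DMSO, and did not overlap either. Of these cytosolic sums, Vars alone held a mean of 313 CPM with TGFb and 779.6 CPM with DMSO. Of the mitochondrial sums, Vars2 alone held 38.9 to 57.0 CPM with TGFb and 94.0 to 134 CPM with DMSO. Among the 15 genes in the mitochondrial sums, 10 did not pass.

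Ionomycin was also set directly against TGFb, a comparison in which the DMSO libraries enter only the spread. Here 16 cytosolic genes were higher with ionomycin and 1 was lower, and 7 mitochondrial genes were higher and 3 lower, where 62.9% of all genes passed, 31% higher and 31.9% lower (edgeR). The medians were 0.93 over the cytosolic, 0.17 over the mitochondrial and -0.04 over all genes. In 14 cytosolic genes all 6 ionomycin libraries lay above all 6 TGFb libraries, against 14.7% of all genes.

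Vars differed most among the cytosolic genes, with 660.5, 940.4 and 1070 CPM for ionomycin and 209.9, 339.8 and 387.6 CPM for TGFb, a log2 fold change of 1.53 ± 0.16 (adjusted p = 1.41e-07). Wars followed at 1.43 ± 0.14 with 173.3, 226.9 and 285.9 CPM for ionomycin and 64.1, 88.4 and 113.3 CPM for TGFb, then Nars at 1.26 ± 0.14 and Eprs at 1.25 ± 0.12. The complex members Kars at -0.17 ± 0.09 and Dars at 0.12 ± 0.09 did not pass. Kars passed as lower with library totals, without PD883 and without ionomycin PD883 9 (-0.23 to -0.13 over single left-out libraries). Farsa was the cytosolic gene that was lower with ionomycin, at 51.9, 55.5 and 62.1 CPM against 51.3, 83.0 and 94.4 CPM with TGFb, a change of -0.48 ± 0.13 (adjusted p = 0.00309) that did not pass without PD7591. Its partner Farsb was higher, at 93.7, 118.5 and 150.1 CPM with ionomycin and 61.9, 72.9 and 82.3 CPM with TGFb (0.72 ± 0.11, adjusted p = 2.10e-05), so the genes of the 2 subunits of this enzyme were called in opposite directions. Farsb shares 248 exonic bases on opposite strands with Sgpp2, so its counts may hold reads of both.

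Among mitochondrial genes Vars2 at 1.84 ± 0.11 (adjusted p = 8.97e-11) and Tars2 at 0.64 ± 0.07 (adjusted p = 4.54e-07) were higher with ionomycin in every library, and Rars2 at 0.42 ± 0.11, Mars2 at 0.44 ± 0.16, Nars2 at 0.32 ± 0.12 and Iars2 at 0.24 ± 0.09 were higher by less. Hars2 held 25.6, 33.8 and 36.6 CPM with ionomycin and 37.2, 40.5 and 48.6 CPM with TGFb, and was lower by -0.38 ± 0.10 (adjusted p = 0.00377), without overlap. Yars2 at -0.54 ± 0.16 and Sars2 at -0.28 ± 0.11 were lower too. The calls of Iars2, Mars2, Nars2 and Sars2 were lost in 11, 9, 10 and 14 of 33 alternative settings. Single libraries that ended a call were ionomycin PD7591 3 and 4, TGFb PD7591 5 and 6 and TGFb PD883 11 for Iars2 (0.19 to 0.29 over single left-out libraries), and ionomycin PD7591 3, ionomycin PD883 10 and TGFb PD454 18 for Mars2 (0.36 to 0.53). For Nars2 they were ionomycin PD883 9 and 10, TGFb PD454 17 and TGFb PD883 11 (0.25 to 0.35), and for Sars2, whose call was also lost without the 4 short-transcript libraries, ionomycin PD454 15 and 16, ionomycin PD883 9, TGFb PD454 18, TGFb PD7591 5 and TGFb PD883 12 (-0.34 to -0.24).

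The lines differed in how many genes passed within each of them, with tests that rest on duplicates alone. For ionomycin 5 cytosolic genes rose in PD454, 12 in PD7591 and 15 in PD883, where 11.7%, 11.2% and 11.6% of all genes were higher, and none fell. Of the mitochondrial genes none rose and 2 fell in PD454, 1 rose and none fell in PD7591, and 2 rose and 1 fell in PD883, where 9.34%, 7.41% and 10.9% of all genes were lower. The cytosolic medians were 0.19, 0.60 and 0.83 and the mitochondrial medians -0.16, 0.08 and 0.04 in that order of lines. For TGFb 7 cytosolic genes fell in PD454, 1 in PD7591 and 10 in PD883, where 16.1%, 20.1% and 20% of all genes were lower. In PD7591 the cytosolic gene that fell was Vars. The mitochondrial genes that fell numbered 4, 4 and 3 in that order of lines, and 2 rose in PD883, where 14.8%, 17.7% and 18.4% of all genes were higher.

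A joint test for equal effects across the 3 lines called none of the 36 genes for either agent, against 2.59% of all genes for ionomycin and 5.26% for TGFb (edgeR). At an unadjusted p under 0.05 it held 8 of 36 genes for ionomycin and 7 of 36 for TGFb, which is 22.2% and 19.4%, against 20.3% and 21% of all genes. For ionomycin Wars came nearest to a call (edgeR adjusted p = 0.0577), with log2 fold changes of 0.68 in PD454, 1.24 in PD7591 and 1.67 in PD883. Farsb, the next in order, stood at 0.19, 0.52 and 0.88 in these lines. For TGFb the nearest were Wars2, the mitochondrial tryptophanyl enzyme, at 0.17, -0.55 and -0.73, and Aars2, the mitochondrial alanyl enzyme, at 0.09, -0.41 and 0.48. Wars passed without ionomycin PD883 10, Wars2 passed without ionomycin PD883 9, ionomycin PD883 10 or DMSO PD883 8, and Aars2 passed without ionomycin PD883 9 or 10.

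Lars2 had by far the widest spread. It held 1768 and 2591 CPM in PD454, 1699 and 655.8 CPM in PD7591 and 301 and 1911 CPM in PD883 with ionomycin. With TGFb it held 616.6 and 222.1 CPM, 203.3 and 203.7 CPM, and 200.9 and 453.2 CPM, and with DMSO 1417 and 384.8 CPM, 1127 and 826.3 CPM, and 395.4 and 231.4 CPM, in the same order of lines. Duplicates were far apart in PD7591 and PD883 with ionomycin, in PD454 and PD883 with TGFb and in PD454 with DMSO. Neither the log2 fold change of 1.03 ± 0.46 for ionomycin (adjusted p = 0.0921) nor that of -1.14 ± 0.47 for TGFb (adjusted p = 0.0524) passed, while that of 2.17 ± 0.47 for ionomycin against TGFb did (adjusted p = 6.26e-04). The change for ionomycin passed without ionomycin PD883 9 (0.74 to 1.26 over single left-out libraries). That for TGFb passed in 9 of 33 alternative settings, among them DESeq2, without PD883 and without the 4 short-transcript libraries together. Single libraries whose removal gave this call were ionomycin PD883 9, TGFb PD454 17, TGFb PD883 12, DMSO PD454 14 and DMSO PD883 8 (-1.42 to -0.91).

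Counts of the ribosomal RNA gene Rn45s moved with Lars2. Rn45s took 0.304% to 4.11% of the counts with ionomycin, 0.256% to 1.04% with TGFb and 0.283% to 2.26% with DMSO. In the group of ionomycin PD883, library 9 held 0.304% Rn45s and 301 CPM of Lars2, and library 10 held 1.60% Rn45s and 1911 CPM. In the group of DMSO PD454, library 13 held 2.19% Rn45s and 1417 CPM, and library 14 held 1.06% Rn45s and 384.8 CPM. The part of ribosomal RNA reads in the Lars2 counts was not tested, and Lars2 is left out of the mitochondrial sums for that spread.

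**Figure D5:**
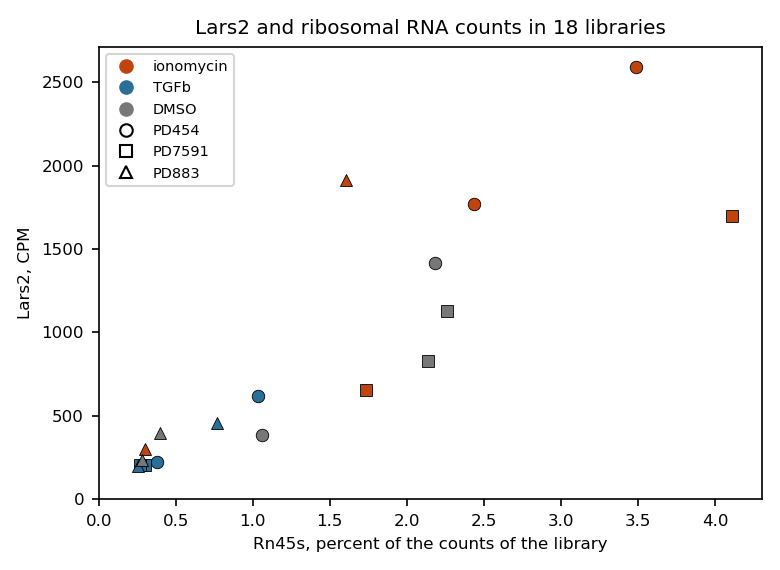
Lars2 in CPM against the percent of counts on the ribosomal RNA gene Rn45s in each of 18 libraries; colour marks the treatment and shape the line. The library with the most Lars2 (2591 CPM) has 3.48% Rn45s.

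Genes that act before and after charging were counted for comparison. Of 26 genes of tRNA maturation and export 1 rose and 4 fell with ionomycin, where 17.2% of all genes were higher and 16.1% lower. The riser was Xpot, which exports tRNA from the nucleus, at 0.55 ± 0.10 with ionomycin and -0.40 ± 0.10 with TGFb, and Pop1, a protein of the RNase P that trims tRNA precursors, fell by 1.53 ± 0.20 with ionomycin. Of 30 cytosolic translation factors 5 rose and 2 fell with ionomycin, and 6 rose and 3 fell with TGFb, where 24.3% of all genes were higher and 26.5% lower, so that none of these 4 counts lay above its share over all genes. One example was the initiation factor subunit Eif3c at 0.74 ± 0.10 with ionomycin and -0.45 ± 0.10 with TGFb. Of 32 mitochondrial translation genes 1 rose and 6 fell with ionomycin, beside the same shares of 17.2% and 16.1%, among them the ribosomal protein gene Mrpl11 at -0.87 ± 0.18 and Mrpl9 at -0.54 ± 0.11.

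Of 34 genes of the integrated stress response outside the synthetases 29 rose and none fell with ionomycin, with a median of 1.11, where 17.2% of all genes were higher. With TGFb 25 fell and none rose, with a median of -0.69, where 26.5% of all genes were lower. Atf4 held 360.6, 582.5 and 703.8 CPM with ionomycin and 228.4, 281 and 437.4 CPM with DMSO, and rose by 0.81 ± 0.15 (adjusted p = 5.41e-04). With TGFb it held 208.1, 230.9 and 336.3 CPM, and its change of -0.24 ± 0.15 did not pass (adjusted p = 0.188). Stc2, a secreted glycoprotein gene, stood at 2.91 ± 0.22 with ionomycin and -3.48 ± 0.29 with TGFb. The amino acid transporter gene Slc7a5 stood at 0.91 ± 0.15 with ionomycin and -1.62 ± 0.16 with TGFb.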

How the data were processed

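The deposited table holds unscaled read counts for each gene symbol. CASAVA, Trimmomatic 0.32, featureCounts, STAR and the build mm10 are named in the submitters' processing notes, while the sources used here give no settings, strand mode or annotation release. RNA was extracted with RNeasy Mini or NucleoSpin kits, and the labels do not say which library used which. Of the entries, 5059 were at 0 in all 18 libraries and 26 had names turned into dates.

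The analysis used edgeR 4.0.16 in R 4.3.3 (filterByExpr over the 9 groups, TMM factors, robust quasi-likelihood F test, treatment plus line); DESeq2 1.42.0 and limma 3.58.1 gave alternatives. Tests ran on all 13827 genes kept, and a Benjamini-Hochberg adjusted p under 0.05 was called. Effects within lines and the test of line dependence came from a model with a mean per group. The SE is the log2 fold change divided by the square root of F. Duplicates correlated at 0.981 to 0.993 over log2 CPM across genes and differed by more than sampling noise (chi-square per degree of freedom of 4.63 to 86.2).

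The members and gene lists were chosen with earlier results of these data known. Full values are given, per contrast, for up to 8 members of each class with the smallest adjusted p in each direction, for called members against their class, for Gars and Kars and for the members with the smallest p for line dependence; further members were added after their values were seen. Alternatives were median-ratio factors, library totals, no filter, summed duplicates, a model without the line, one with a mean per group, limma-voom, DESeq2, a length offset, the libraries of the contrast alone, and leaving out Rn45s, 4 libraries rich in short transcripts, each line and each library. Leaving Lars2 out of its class was chosen after seeing the data. The tests were checked on simulated data. Far fewer genes were changed there than were called here, and the changes simulated for ionomycin against DMSO were the same in every line. A count over the further genes of tRNA charging is not reported here.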

Additional observations from a re-analysis of the deposited data

Results flagged for a closer look

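Among 108 groups of 6 libraries, 6 held a library farther from the others than the 95% limit of Dixon's test, where chance gives about 1 in 20. TGFb PD883 11 was the lowest TGFb library for Mars (97.6 CPM, the next at 123.6), for Yars (87.8 CPM, the next at 113.5) and for the mitochondrial sum without Lars2 (396.6 CPM, the next at 437.4). Dars stood lowest in TGFb PD454 17 (86.0 CPM, the other TGFb libraries at 97.6 to 100 CPM). Kars stood highest in DMSO PD454 14 (274 CPM, the next at 242.3), which is a library rich in short transcripts. Cars2 stood lowest in DMSO PD883 7 (14.9 CPM, the next at 21.1).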

How the results depend on the processing

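Treatments were paired by line, through the line term and in the fit with summed duplicates; below the level of lines no paired analysis was possible because the groups share no library numbers. The medians of the cytosolic minus the mitochondrial genes kept their sign in the alternatives run for ionomycin against DMSO (0.60) and ionomycin against TGFb (0.76), but that for TGFb against DMSO (-0.05) was 0.0031 without the 4 libraries rich in short transcripts. Kars, not called, turned to 0.016 for ionomycin against DMSO without PD454. Mitochondrial calls fell to 2 (ionomycin against DMSO), 3 (TGFb against DMSO) and 5 (ionomycin against TGFb) without a line term, and to 1, 2 and 4 with summed duplicates, with which 2 cytosolic genes passed for TGFb against DMSO. Without PD454, 2 mitochondrial genes passed for ionomycin against DMSO; without PD883, 5 cytosolic genes passed for TGFb against DMSO and 6 mitochondrial genes for ionomycin against TGFb; with the length offset, 3 mitochondrial genes passed for TGFb against DMSO. Line dependence called 1 gene for ionomycin (Wars) and 1 for TGFb (Wars2) with no low-count filter, and 1 for TGFb (Wars2) with the length offset; without single libraries it called 0 to 1 for ionomycin and 0 to 2 for TGFb. The causes were not tested. Library totals moved the median of all genes to -0.12 for ionomycin against DMSO, where 1936 of 4931 calls were higher (2372 of 4599 with composition factors), and to -0.11 for ionomycin against TGFb; 13 cytosolic genes still rose with ionomycin and none fell. Without single libraries 14 to 15 cytosolic and 3 to 5 mitochondrial genes passed for ionomycin against DMSO, 7 to 10 and 4 to 7 for TGFb against DMSO, and 17 to 18 and 8 to 11 for ionomycin against TGFb.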
